A study of Mus musculus with 24 samples.

Results

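The 9 genes described here belong to the Notch pathway: the ligand gene Jag1, the receptor genes Notch1, Notch2 and Notch3, the DNA-binding factor gene Rbpj and its co-activator gene Maml1, the target genes Hes1 and Hey1, and the inhibitor gene Numb. All 9 were found among the 12091 genes of the deposited table. They were selected on the values of 1 contrast, PTN knockdown in E0771-LG cells, because Rbpj was lower after the knockdown there. For that contrast, and for the difference between the lines, which shares its E0771-LG shCtrl samples, the 9 genes are therefore given as a description, with no test.

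Notch receptors are cut after they bind a ligand on a neighboring cell, and the freed intracellular piece enters the nucleus. There it joins RBPJ and a Mastermind protein such as MAML1 on DNA and turns on targets such as the HES and HEY repressor genes; without it, RBPJ recruits corepressors. In the mammary gland the pathway takes part in the choice of luminal cell fate, and in blood vessels it acts in endothelial and mural cells.

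The study asked what pleiotrophin (PTN), a secreted heparin-binding cytokine, does in metastatic breast cancer. RNA of 24 bulk samples was sequenced in 4 experiments, each with 3 control and 3 PTN-inhibited samples. Mice with 4T1 tumors (BALB/c strain, 8 weeks old when injected; the labels give no time of collection) or with MMTV-PyMT tumors (FVB/N strain, treated from 8 to 12 weeks of age) received the anti-PTN antibody 3B10 or the control antibody C44, each at 15 mg/kg 2 times a week. E0771 cells (C57BL/6 strain) and E0771-LG cells, a line derived from a lung metastasis of E0771, carried an shRNA against Ptn (shPTN) or a control vector (shCtrl). The knockdown used a single shRNA construct, the control vector carried a sequence against EGFP, and both were kept in puromycin for 6 weeks, so that the cell samples share the vector and the selection. In the MMTV-PyMT mice the polyoma middle T transgene is driven by the MMTV promoter, which is active in mammary epithelium. The 4T1 tumors came from injected cells of 1 line and the MMTV-PyMT tumors arose in the gland, so strain, origin and treatment schedule cannot be told apart between the tumor models.

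Values are log2 values as deposited. In the 18 MMTV-PyMT and cell samples they correspond to CPM (each count divided by the sample total in M reads) with 0.5 read added, at a depth of 15.6 to 21.1 M reads on genes per sample. The 6 samples of 4T1 tumors are on another, length-normalized scale of unknown depth, so 4T1 levels were compared with each other only, and of the tumor models only the responses to 3B10 were compared. Each group had 3 samples, and adjusted p-values (limma, over all genes tested) weigh a difference against the spread between these samples. For the cell lines they do not cover the spread between shRNA constructs, as a single one was used. A gene was called where the adjusted p was under 0.05. The difference between the lines shares its shCtrl samples with both knockdown contrasts.

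Ptn itself was read first as a check of the labels. In E0771 cells it had 128, 92 and 80 reads in the shCtrl samples and 12, 21 and 22 in the shPTN samples. In E0771-LG cells it had 216, 446 and 248 reads with shCtrl and 56, 35 and 45 with shPTN. All 6 knockdown samples were thus below their controls. On the log2 scale Ptn fell by 2.71 in E0771-LG cells, with an SE of 0.28 and an adjusted p of 6.3e-05, and fell by 2.40 in E0771 cells, with an SE of 0.37 and an adjusted p of 0.00159. In MMTV-PyMT tumors Ptn was at log2 values of 2.80, 2.73 and 3.42 with C44 and 3.28, 2.95 and 4.22 with 3B10, and in 4T1 tumors at -0.19, -0.65 and -0.12 with C44 and -0.76, 0.86 and 0.37 with 3B10, too low to be tested there. The antibody acts on the protein, and the groups of both tumor models overlapped.

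Rbpj, the DNA-binding factor of the pathway, was the gene on which the selection rested. In E0771-LG cells its log2 CPM was 8.64, 8.45 and 8.37 in the shCtrl samples, from 6894, 6859 and 6147 reads. With shPTN it was 6.75, 6.71 and 7.05, from 2270, 1887 and 2309 reads. The lowest control sample stood far above the highest knockdown sample. The difference was -1.65 (SE 0.12), which left 31.8% of the control level. In order from the most lowered gene, Rbpj came at place 75 of the 10405 genes in that contrast. Here 4826 of the 10405 genes were called (46.4%), 2531 higher (24.3%) and 2295 lower (22.1%).

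In parental E0771 cells, whose values took no part in the selection, Rbpj was at 7.95, 8.37 and 8.08 with shCtrl and at 7.60, 7.81 and 7.85 with shPTN. Each shPTN sample was below each shCtrl sample, by a narrow margin. Rbpj fell by 0.38 (SE 0.11, adjusted p = 0.037), to 76.8% of the control level. The call was lost in 6 of 17 alternative settings, whose adjusted p-values spanned 0.00705 to 0.14: with no filter on low values (0.0763), with median-of-ratios scaling (0.0513), and without shCtrl replicate 2 (0.14), shCtrl replicate 3 (0.0814), shPTN replicate 1 (0.0748) or shPTN replicate 3 (0.0731). The difference between the Rbpj responses of both lines was not tested, since the E0771-LG values chose the gene. As the samples are bulk RNA, fewer cells of a kind and less RNA per cell cannot be told apart.

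Across the groups on the CPM scale, mean log2 Rbpj was 8.49 in E0771-LG shCtrl, 8.13 in E0771 shCtrl, 7.75 in E0771 shPTN, 6.84 in E0771-LG shPTN, 5.10 in MMTV-PyMT C44 and 4.96 in MMTV-PyMT 3B10. The 2 groups at the top met at 8.37 and the 2 tumor groups overlapped, whereas the other neighbors in this order were apart in every sample. Rbpj thus went from its highest cell level to its lowest within E0771-LG cells. In MMTV-PyMT tumors its log2 CPM was 4.91, 5.20 and 5.18 with C44 and 5.18, 4.72 and 4.98 with 3B10 (difference -0.14, on leaving out 1 sample -0.25 to -0.02, adjusted p = 1). The 4T1 values were 6.39, 6.45 and 6.54 with C44 and 6.56, 6.48 and 6.55 with 3B10 (difference 0.07, on leaving out 1 sample 0.04 to 0.11, 0.17 with the length correction, adjusted p = 0.969). Samples of the tumor groups overlapped in both models.

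**Figure D1:**
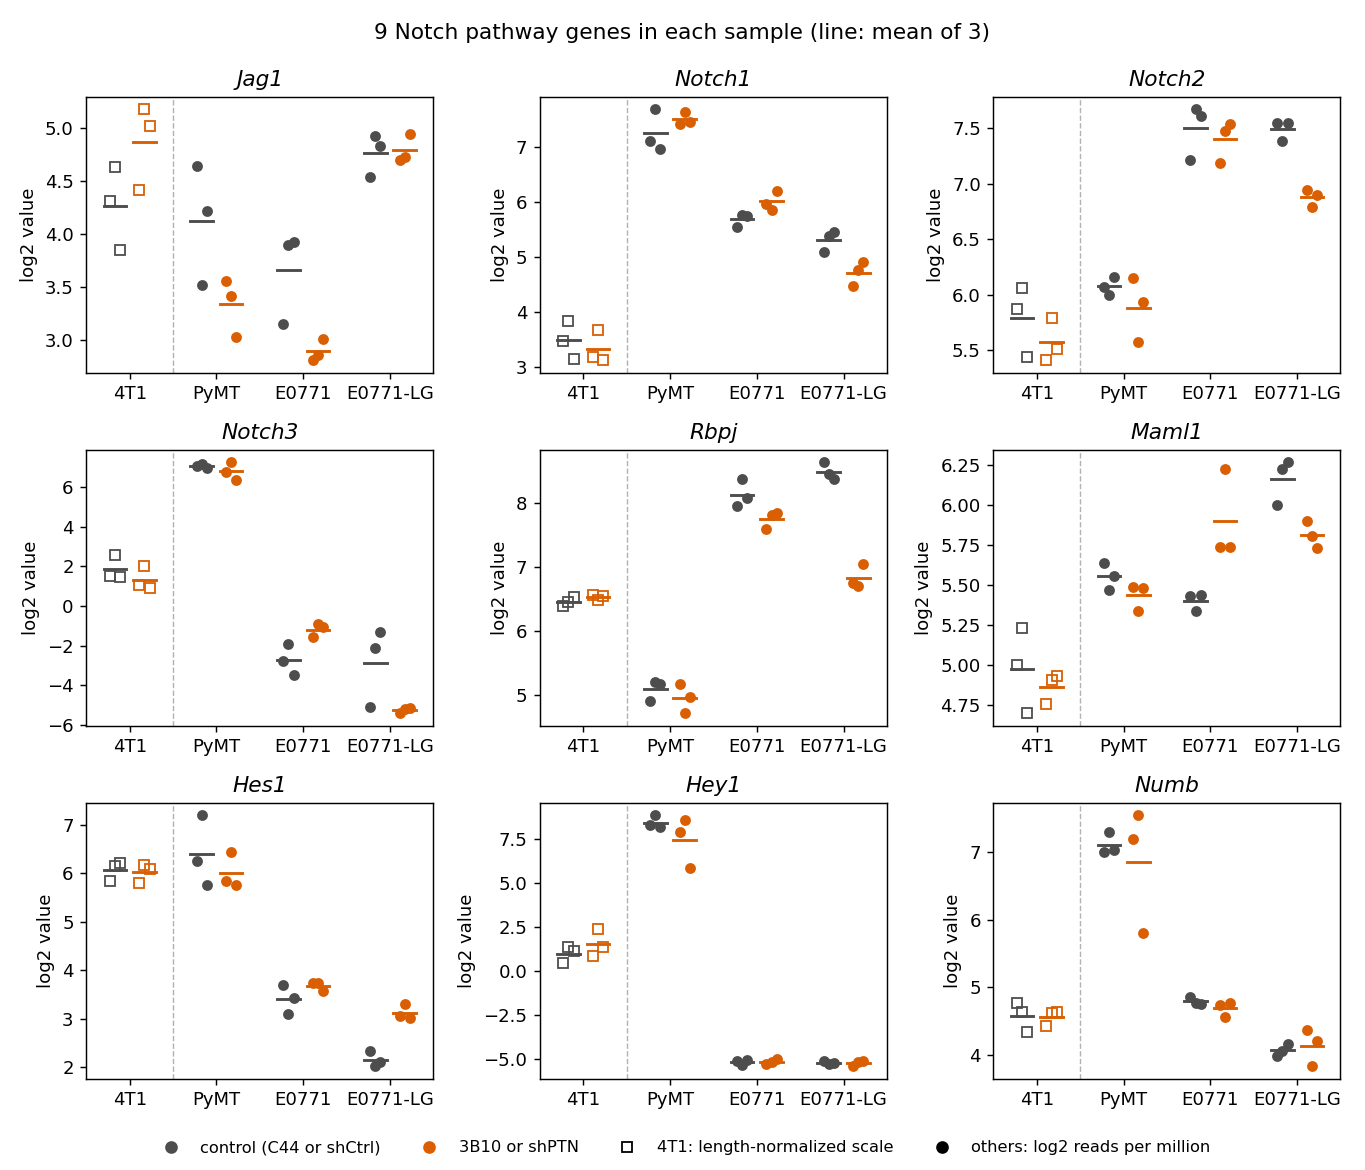
Log2 values of the 9 genes in each of the 24 samples, with a line at the mean of each group of 3. The squares of the 4T1 tumors are on their own scale; Rbpj is lowest among the cell samples in the E0771-LG shPTN group, at 6.71 to 7.05.

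Rbpj lies on the plus strand of chromosome 5 (GRCm38, chr5:53466152-53657362) and has 12750 bases of exons. The annotation (GENCODE M21) holds 2 processed copies of it, of which 1, Rbpj-ps3, was in the table. Rbpj-ps3 had 84, 101 and 116 reads in E0771-LG shCtrl samples and 16, 7 and 18 with shPTN. In E0771 cells it had 59, 104 and 69 reads with shCtrl and 48, 42 and 35 with shPTN. In the cells the copy was thus lower with shPTN, like Rbpj, and held few reads beside it. In MMTV-PyMT tumors it had 218 to 372 reads, more than in the cells, beside 485 to 707 for Rbpj, fewer than in the cells. In 4T1 tumors, on their own length-normalized log2 scale, Rbpj-ps3 was at 5.84, 5.90 and 3.95 with C44. With 3B10 it was at 3.93, 5.23 and 5.08, beside 6.39 to 6.56 for Rbpj over both groups. How much of the signal of this copy came from Rbpj RNA was not tested.

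RefSeq promoter windows (GRCm38.p6, 250 bases before to 50 after each start) were searched on both strands for the letters that RBPJ is known to bind, TGGGAA and the longer GTGGGAA, and for the NF-kappaB consensus, by name, since the study describes PTN as acting through NF-kappaB. Of the 9 genes, 7 had windows in the set searched. No window was found there for Hes1 and Hey1. TGGGAA was found in 25.6% of the 32851 windows of all genes, GTGGGAA in 6.38% and the NF-kappaB consensus in 4.51%. Among the 7 genes, only the windows of Rbpj held TGGGAA and only that of Notch2 the NF-kappaB consensus, whose letters can include GGGAA and so overlap the RBPJ motif. Among 48 Notch pathway genes of the deposited table with windows, these 7 included, 15 held TGGGAA, 4 of them GTGGGAA, and 4 the NF-kappaB consensus; by windows, 17 of 65 held TGGGAA, 4 GTGGGAA and 4 the consensus. With the pathway genes outside the table, 18 of 53 genes (20 of 70 windows) held TGGGAA and 7 of them GTGGGAA. Called list genes with TGGGAA went both ways after knockdown in E0771-LG cells. Lfng, Psen2 and Psenen were higher, and Aak1, Aph1a, Ctbp2, Kat2a, Maml2 and Nedd4 were lower. The windows of Rbpj, of Notch2 and of Lfng are shown with the matches in capitals (TTCCCA is TGGGAA on the other strand). They lie at chr5:53590096-53590395, chr3:98013288-98013587 and chr5:140607091-140607390, all on the plus strand. A match describes letters and is not a bound site.
Rbpj: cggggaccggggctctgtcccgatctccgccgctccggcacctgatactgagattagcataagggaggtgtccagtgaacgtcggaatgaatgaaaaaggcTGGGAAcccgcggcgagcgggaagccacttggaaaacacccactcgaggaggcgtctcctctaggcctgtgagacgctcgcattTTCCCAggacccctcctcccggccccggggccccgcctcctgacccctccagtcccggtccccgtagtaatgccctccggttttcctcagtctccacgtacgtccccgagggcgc
Notch2: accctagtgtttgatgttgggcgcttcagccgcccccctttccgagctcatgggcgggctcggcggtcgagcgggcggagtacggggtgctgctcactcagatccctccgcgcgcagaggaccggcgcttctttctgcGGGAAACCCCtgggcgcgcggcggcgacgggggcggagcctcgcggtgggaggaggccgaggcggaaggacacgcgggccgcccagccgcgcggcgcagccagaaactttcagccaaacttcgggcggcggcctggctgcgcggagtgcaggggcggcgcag
Lfng: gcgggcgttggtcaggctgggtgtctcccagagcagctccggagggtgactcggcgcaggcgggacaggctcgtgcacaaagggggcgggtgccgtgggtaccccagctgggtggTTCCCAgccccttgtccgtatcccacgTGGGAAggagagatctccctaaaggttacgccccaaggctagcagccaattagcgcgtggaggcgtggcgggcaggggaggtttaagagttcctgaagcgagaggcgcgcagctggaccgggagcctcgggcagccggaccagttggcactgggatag

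Of the 9 genes, 7 passed the filter on low values in the cell lines, without Notch3 and Hey1, and all 9 did in the tumors. In E0771 cells, 3 of the 7 were called after knockdown (Rbpj and Jag1 lower, Maml1 higher), beside 2140 of 10394 genes (20.6%), 924 higher (8.89%) and 1216 lower (11.7%). That background count was 1268 without shCtrl replicate 2, 1171 without shCtrl replicate 3 and 1238 without shPTN replicate 3. In E0771-LG cells the groups of 5 of the 7 did not overlap, with Rbpj, Notch1, Notch2 and Maml1 lower and Hes1 higher, beside 5945 of 10405 genes without overlap (57.1%); the selection used this contrast.

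Jag1 encodes a ligand that is presented to neighboring cells. In E0771 cells its log2 CPM was 3.15, 3.90 and 3.93 with shCtrl and 2.81, 2.86 and 3.01 with shPTN. All shPTN samples were lower, and shCtrl replicate 1 stood near them. Jag1 fell by 0.77 (SE 0.22, adjusted p = 0.031), a call lost with no filter (adjusted p = 0.0617) and without shCtrl replicate 2 (0.127), shCtrl replicate 3 (0.139), shPTN replicate 1 (0.055) or shPTN replicate 3 (0.0714), within a range of 0.00533 to 0.139 over 17 settings. In E0771-LG cells the values were 4.54, 4.93 and 4.83 with shCtrl and 4.70, 4.73 and 4.95 with shPTN, a difference of 0.03 (SE 0.14). There the groups overlapped throughout, at a level above that of every E0771 sample.

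The same ligand gave opposite signs in the tumors. In MMTV-PyMT tumors Jag1 was at 4.64, 3.52 and 4.22 with C44 and 3.56, 3.42 and 3.03 with 3B10, a difference of -0.79 (SE 0.31, unadjusted p = 0.0367, adjusted p = 1). In 4T1 tumors it was at 4.31, 4.63 and 3.85 with C44 and 4.42, 5.18 and 5.02 with 3B10, a difference of 0.61 (SE 0.27, unadjusted p = 0.0515, adjusted p = 0.791). Neither passed the test over all genes, and in both models samples of the groups overlapped.

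Notch1 and Notch2 encode receptors, and both were measured in every experiment. In E0771-LG cells Notch1 was at 5.09, 5.38 and 5.45 with shCtrl and 4.48, 4.77 and 4.91 with shPTN (difference -0.59, SE 0.15). Notch2 was at 7.55, 7.38 and 7.55 with shCtrl and 6.94, 6.79 and 6.90 with shPTN (difference -0.62, SE 0.10). Both receptors were lower in every knockdown sample than in any control sample, at 66.6% and 65.2% of their control levels. In E0771 cells Notch1 was at 5.55, 5.77 and 5.74 with shCtrl and 5.97, 5.86 and 6.20 with shPTN. Here the knockdown samples were the higher ones, without overlap. The difference of 0.32 (SE 0.11) had an adjusted p of 0.0688, and it passed in 5 of 17 settings (range 0.0144 to 0.269): both other scalings (0.043 with median-of-ratios, 0.0345 with quantile normalization), a block for the replicate number (0.0416), a correction for gene length (0.0144) and without shPTN replicate 2 (0.0323). Notch2 in E0771 cells differed by -0.10 (adjusted p = 0.652).

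Notch3, a receptor known from mural cells of vessels, and Hey1, a target gene, were near or at zero in the cell lines. Notch3 had 8 reads over the 3 E0771 shCtrl samples, 22 over the shPTN samples, 11 in E0771-LG shCtrl and 0 in E0771-LG shPTN samples. Hey1 had 0 reads in all 12 cell samples, which together held 219 M reads; a count of 0 allows up to 0.0137 CPM, at 3 counts and for counting error only. In MMTV-PyMT tumors the same genes were abundant, with 1319 to 2804 reads per sample for Notch3 and 956 to 9094 for Hey1. These genes were thus measured in the tumors but hardly or not in the cultured lines.

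Maml1 encodes the co-activator that joins the complex of RBPJ and the cut receptor. In E0771 cells it was at 5.43, 5.34 and 5.44 with shCtrl and 5.74, 6.23 and 5.74 with shPTN. Every knockdown sample was higher, and replicate 2 was the highest. Maml1 rose by 0.50 (SE 0.13, adjusted p = 0.0234), a call lost in 3 of 17 settings (range 0.00821 to 0.0827), namely with no filter (0.0518), without shCtrl replicate 2 (0.0827) and without shCtrl replicate 3 (0.0654). In E0771-LG cells it was at 6.00, 6.23 and 6.27 with shCtrl and 5.90, 5.81 and 5.73 with shPTN, lower in each knockdown sample (difference -0.36, SE 0.11).

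Hes1 encodes a repressor that is a direct target of the pathway. In E0771-LG cells it was at 2.34, 2.02 and 2.10 with shCtrl, from 79 to 87 reads, and at 3.05, 3.31 and 3.02 with shPTN, from 141 to 178 reads. All knockdown samples were above all controls, so that this target was higher (difference 0.98, SE 0.22, 1.97-fold) in the samples with the least Rbpj. In E0771 cells Hes1 was at 3.70, 3.09 and 3.42 with shCtrl and 3.73, 3.73 and 3.57 with shPTN, with overlap (difference 0.27, on leaving out 1 sample 0.12 to 0.42, SE 0.18, adjusted p = 0.318). Numb encodes an inhibitor that acts on receptor trafficking; its differences after knockdown were -0.11 in E0771 (on leaving out 1 sample -0.14 to -0.04, adjusted p = 0.558) and 0.06 in E0771-LG cells (SE 0.17), with overlapping groups in both.

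**Figure D2:**
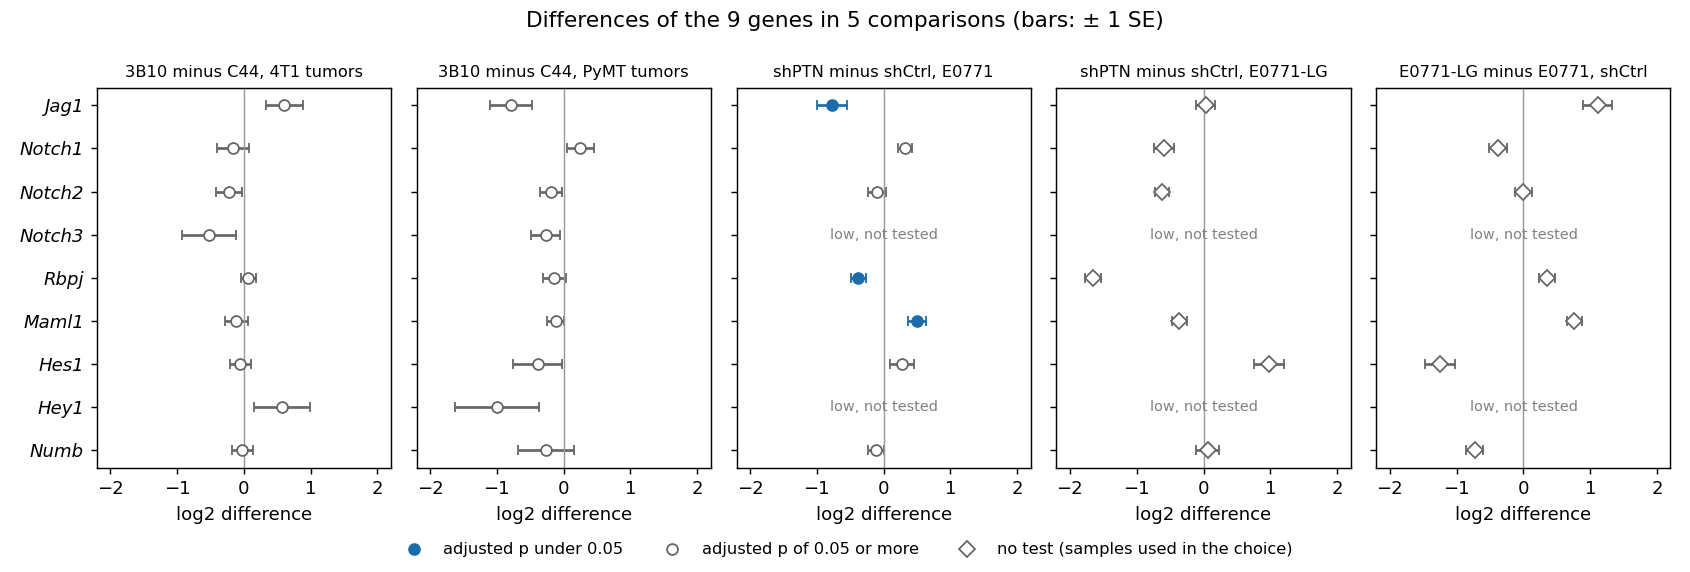
Log2 difference of each of the 9 genes in 5 comparisons, with bars of 1 SE from limma. Filled points were called; diamonds mark comparisons with samples that took part in choosing the genes and have no test. No point is filled in either tumor model.

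The size of the differences in E0771-LG cells went with the length of the genes. Over the 10405 genes of that contrast, the log2 difference changed by -0.22 for each doubling of exon length, and by -0.12 over all 12091 genes of the table, those with low values included. The median difference was -0.27 over the 1088 genes with at least 10 kb of exons and 0.47 over the 1236 genes with at most 2 kb. Of the 7 genes, Notch1 (14232 bases), Rbpj (12750) and Notch2 (10782) are the longest and Hes1 (2037) is the shortest, so the 3 longest were lower and the shortest was higher. After a correction for this trend, chosen after seeing the data, the difference of Rbpj was -1.42, that of Notch2 -0.39, that of Notch1 -0.37, that of Maml1 -0.30 and that of Hes1 0.62. Before the correction, 6 of the 1088 genes with at least 10 kb of exons had a lower difference than Rbpj. As Rbpj was chosen for its fall in this contrast, that count is a description only. What the trend stems from was not tested, RNA quality and library preparation included, so the E0771-LG differences are to be read beside it. The same slope was -0.02 in E0771 cells, where the 3 calls among the 9 genes were also made with the correction.

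**Figure D3:**
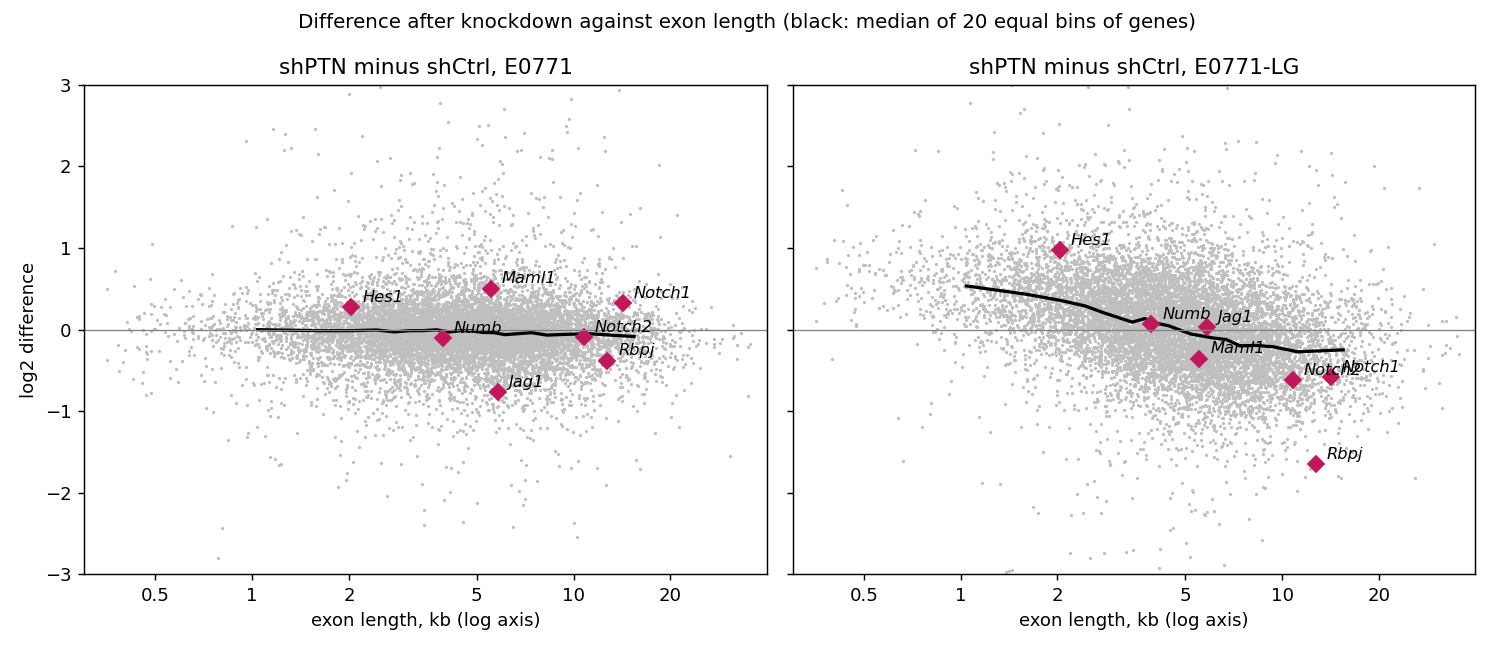
Log2 difference after knockdown against exon length (log axis) for all genes tested in E0771 (left) and E0771-LG cells (right); the black line joins medians of 20 bins with equal numbers of genes, and values beyond 3 in either direction are not drawn. The line slopes downward in E0771-LG cells, where Rbpj, chosen for its fall there, is at -1.65.

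A list of 58 other Notch pathway genes, of which 52 were in the table, places the 9 in their pathway. In E0771 cells 11 of the 52 were called after knockdown, 6 higher and 5 lower (21.2%, beside 20.6% of all genes tested; median difference -0.02, and -0.03 over all genes). By role, the calls were 2 of 3 ligands, 1 of 5 glycosylation genes, 1 of 9 cleavage genes, 1 of 3 ubiquitin ligases of ligands, 4 of 12 corepressors and 2 of 3 targets, and not the receptor Notch4, none of 7 genes of the nuclear complex (1 at an unadjusted p under 0.05) and none of 9 inhibitor or trafficking genes (2 at an unadjusted p under 0.05, limma). Without shPTN replicate 1, and likewise with the length correction, 10 genes were called higher. Only 2 were lower without shCtrl replicate 2 or without shCtrl replicate 3, and 3 without shPTN replicate 3.

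Within this list, the ligand genes Dll4 and Dll1 had the largest called differences in E0771 cells. Dll4, with 3 to 6 reads in shCtrl and 17 to 42 in shPTN samples, rose by 2.78 (1.15 with a pseudocount of 1). It passed the filter on low values only through the shPTN samples, where it is high. Its adjusted p of 0.00479 is therefore given as a description and supports no conclusion. Dll1, the largest of the others, fell by 1.13 (adjusted p = 0.0336). The Dll1 call was lost with no filter (adjusted p = 0.0664) and without shCtrl replicate 2 (0.145), shCtrl replicate 3 (0.131), shPTN replicate 2 (0.0647) or shPTN replicate 3 (0.079), within a range of 0.00847 to 0.145. Neurl1a, whose product helps ligands to be taken up, rose by 0.73, and Mfng, a sugar transferase that tunes receptors, fell by 0.62; without shCtrl replicate 2 or shCtrl replicate 3 Mfng was not called (adjusted p = 0.0728 and 0.0635, range 0.00273 to 0.0728). The corepressor gene Ctbp1 rose by 0.44 and the RBPJ-binding corepressor gene L3mbtl3 fell by 0.54. Of the target genes Myc fell by 0.51 and Ccnd1 rose by 0.49, so the called targets did not share a direction.

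In E0771-LG cells 27 of 50 list genes tested were called, 12 higher and 15 lower (54%, beside 46.4% of all genes; median difference 0.01, and 0.05 over all genes). All called genes of the nuclear complex, 3 of 7, were lower (Maml2, Ep300 and Kat2a), as was the called target Ccnd1, 1 of 2. The other roles were split: 2 higher and 1 lower of 5 glycosylation genes, 2 and 3 of 9 cleavage genes, 1 and 1 of 3 ubiquitin ligases of ligands, 4 and 2 of 12 corepressors, and 3 and 4 of 9 inhibitor or trafficking genes. No ligand (0 of 2) and not the receptor Notch4 was called, and none of these 3 had an unadjusted p under 0.05 (limma).

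By size, the called list genes in E0771-LG cells were led by Mib2, a ligand ubiquitin ligase, which rose by 1.29 (adjusted p = 0.0277, range 0.00015 to 0.0874), a call lost without shCtrl replicate 3 (0.0874), shPTN replicate 2 (0.0689) or shPTN replicate 3 (0.078). Numbl, the paralog of Numb, rose by 1.08, Cir1, an RBPJ corepressor gene, by 1.03, the fringe genes Lfng and Mfng by 0.95 and 0.84, and Dtx3 by 0.94. Aak1, a kinase of endocytosis, fell by 1.00 and Dtx4 by 0.81. Cir1 was the least stable of the 8 largest. Its call (adjusted p = 0.0367, range 0.0108 to 0.136) was lost in 8 of 17 settings. These included the length correction (0.0706), quantile normalization (0.0743), no filter (0.0767) and a block for the replicate number (0.0611). The others left out shCtrl replicate 1 (0.0885), shCtrl replicate 3 (0.0597), shPTN replicate 1 (0.136) or shPTN replicate 3 (0.103). On leaving out 1 sample the Cir1 difference was 0.68 (without shCtrl replicate 1) to 1.30.

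**Figure D4:**
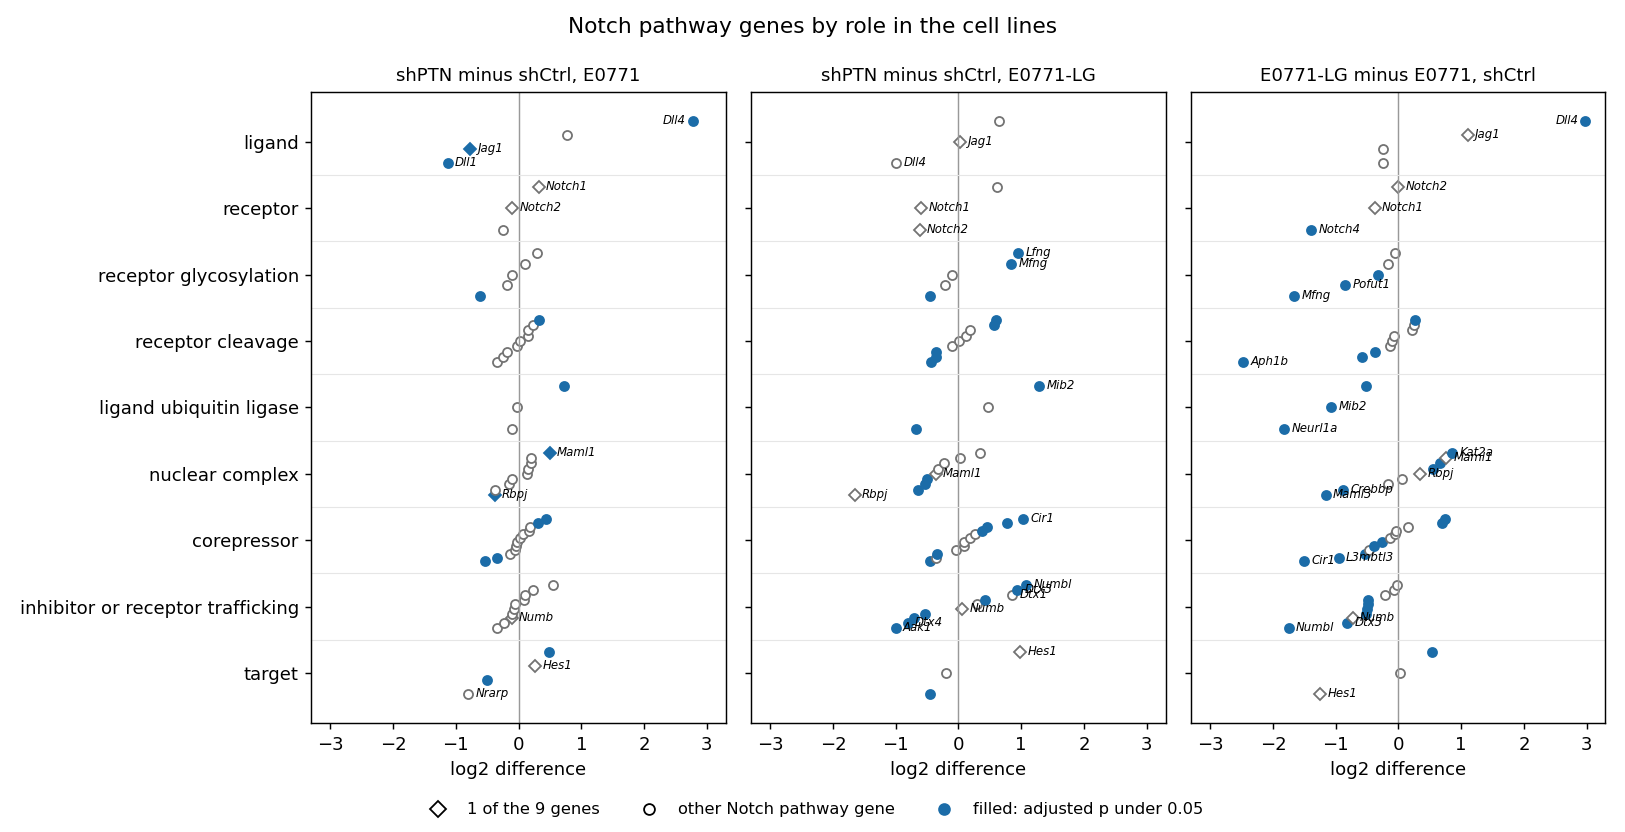
Log2 difference of the Notch pathway genes tested, by role, in 3 comparisons of the cell lines; filled points were called, and diamonds are the 9 genes, shown open where they have no test. Called genes lie on both sides of 0 in both knockdown contrasts.

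The genes whose levels were most like those of Rbpj over the 12 cell samples were Adnp2 (Pearson r = 0.988), Usp6nl (0.988), Ppfibp1 (0.981), Adcy3 (0.981) and Prkd3 (0.979); the samples fall into 4 groups, so r mainly reflects the group means. Each was lowest in E0771-LG shPTN samples, as with Adcy3, at mean log2 values of 6.51, 6.15, 6.67 and 5.43 in E0771 shCtrl, E0771 shPTN, E0771-LG shCtrl and E0771-LG shPTN. Within the Notch list Notch2 and Dtx4 had the highest r with Rbpj (0.89 each) and Lfng the lowest (-0.92). Of all genes, 263 had a higher r than Notch2, 255 a higher r than Dtx4 and 12033 a higher r than Lfng. The E0771-LG values on which Rbpj was chosen are part of each r.

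The lines also differed without knockdown. E0771-LG control cells were compared with E0771 control cells, with 5676 of 10411 genes called (54.5%), 2004 higher (19.2%) and 3672 lower (35.3%). The median difference over all genes was -0.15 and became 0.00 with quantile normalization, so differences are best read relative to that shift. The E0771-LG shCtrl samples took part in choosing the 9 genes, so their differences are given with no test. That of Rbpj was 0.35 (SE 0.12), 0.29 with quantile normalization, 0.50 with median-of-ratios scaling and 0.64 with the length correction. That of Jag1 was 1.11 (SE 0.22), that of Maml1 0.76 (SE 0.11), that of Hes1 -1.25 (SE 0.22), that of Numb -0.73 (SE 0.13), that of Notch1 -0.38 (SE 0.13) and that of Notch2 -0.00 (SE 0.13).

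With quantile normalization the difference between the lines was -0.76 for Hes1, -0.41 for Numb and -0.20 for Notch1, and with the length correction it was 1.00 for Maml1, -0.07 for Notch1 and 0.26 for Notch2.

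Of the wider list, 31 of 51 genes were called between the lines, 8 higher and 23 lower (60.8%, beside 54.5% of all genes; median difference -0.24). With median-of-ratios scaling 11 were higher and 16 lower, and with the length correction 12 and 13. Dll4 rose by 2.98 (1.28 with a pseudocount of 1, less than 4 of the lowered genes in size there). With 3 to 6 reads in E0771 shCtrl samples, it passed the filter only through the E0771-LG samples, so its call supports no conclusion. The other 7 largest were lower in E0771-LG cells. Aph1b, a subunit of gamma-secretase, fell by 2.47, Neurl1a by 1.82, Numbl by 1.75 and Mfng by 1.66. Cir1 fell by 1.50, the receptor gene Notch4 by 1.39 and the co-activator gene Maml3 by 1.16. Over the alternative settings the difference was -1.75 to -0.97 for Cir1 and -1.70 to -0.83 for Notch4. All 3 ubiquitin ligases of ligands and all 6 called inhibitor or trafficking genes, of 9, were lower. The nuclear complex had 3 higher and 2 lower of 7, the corepressors 2 and 5 of 12, the cleavage genes 1 and 3 of 9, the glycosylation genes 0 and 3 of 5, and the targets 1 and 0 of 2.

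The antibody contrasts in the tumors gave no call. With limma, 0 of 11467 genes were called in 4T1 tumors (0%), with 719 at an unadjusted p under 0.05 (6.27%; 370 without 3B10 replicate 3 to 1302 without C44 replicate 3), and 0 of 11361 in MMTV-PyMT tumors (0%), with 307 (2.7%). In MMTV-PyMT tumors limma with voom weights also called 0. Without 3B10 replicate 1, 2 genes were called in 4T1 tumors. None of the 9 genes was called in either model, and of the wider list 0 of 51 genes in 4T1 and 0 of 52 in MMTV-PyMT tumors, nor did any list gene have an unadjusted p under 0.05. The differences of the 9 genes ran from -0.52 for Notch3 to 0.61 for Jag1 in 4T1 tumors, where leaving out 1 sample gave -0.87 (3B10 replicate 2) to -0.16 (C44 replicate 2) for Notch3 and 0.40 (C44 replicate 3) to 0.84 (3B10 replicate 1) for Jag1; in MMTV-PyMT tumors Notch1 had the highest, 0.25 (0.11 to 0.47 on leaving out 1 sample), and Jag1 and Hey1 the lowest. Hes1 was at 6.25, 7.20 and 5.75 with C44 and 5.83, 6.43 and 5.76 with 3B10 in MMTV-PyMT tumors (difference -0.39, adjusted p = 1) and at 5.83, 6.15 and 6.22 with C44 and 5.80, 6.17 and 6.08 with 3B10 in 4T1 tumors (difference -0.05, adjusted p = 0.989). The target gene thus spread widely among MMTV-PyMT tumors, with overlap between the groups of both models.

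Levels per length place the 9 genes within each model. In MMTV-PyMT C44 tumors the mean level, in CPM per kb of exon, was 110 for Hey1, 45.3 for Hes1, 35.4 for Numb, 16.5 for Notch3, 10.9 for Notch1, 8.52 for Maml1, 6.25 for Notch2, 3.14 for Jag1 and 2.69 for Rbpj. On the length-normalized scale of the 4T1 tumors, off the log scale, the C44 levels were 87.5 for Rbpj, 67.0 for Hes1, 55.8 for Notch2, 31.3 for Maml1, 23.6 for Numb, 19.2 for Jag1, 11 for Notch1, 3.35 for Notch3 and 1.54 for Hey1. Within the MMTV-PyMT C44 tumors Hey1 was first and Rbpj last by mean. The ranges of the lowest genes overlapped there, with Jag1 at 1.96 to 4.29 and Rbpj at 2.35 to 2.88. Within the 4T1 C44 tumors, on their own scale, Rbpj was first by mean, Hes1 second and Hey1 last. Hes1 (56.4 to 74.2) and Notch2 (43 to 66.2) overlapped there. Hes1 was second by mean in MMTV-PyMT, but ran from 26.5 to 72.2, beside 32.8 to 40.1 for Numb. These orders of means were read within each model and were not compared between them. In E0771-LG shCtrl cells Rbpj was also first, at 28.2 CPM per kb of exon, before Notch2 (16.7) and Maml1 (13). With shPTN, in the contrast that chose Rbpj, its mean level was 9.01, under those of Notch2 (10.9) and Maml1 (10.2). The ranges overlapped, with Rbpj at 8.2 to 10.4, Notch2 at 10.3 to 11.4 and Maml1 at 9.58 to 10.8.

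Within the MMTV-PyMT tumors, 1 sample stood apart. Hey1 was at 8.29, 8.88 and 8.20 with C44 and 7.90, 8.60 and 5.88 with 3B10, and Numb at 7.01, 7.30 and 7.03 with C44 and 7.20, 7.55 and 5.80 with 3B10. In both genes 3B10 replicate 3 was far below the other 5 tumors. The mean of Hey1 was 8.46 with C44 and 7.46 with 3B10 (SE of the difference 0.63, adjusted p = 1), and the difference was -0.21 without that tumor. That of Numb was -0.26 (adjusted p = 1) and turned to 0.26 without it. Notch3 was also lowest there, at 6.34, against 7.06, 7.18 and 6.94 with C44 and 6.76 and 7.25 in the other 3B10 tumors.

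Vessel markers were read beside Notch3 and Hey1. Of 10 endothelial markers 8 were in the table, and their summed CPM in MMTV-PyMT tumors was 180, 225 and 138 with C44 and 202, 217 and 145 with 3B10, Pecam1 being the most abundant. In each group Notch3, Hey1 and the endothelial sum had the same order, highest in replicate 2 and lowest in replicate 3. For the mural list (6 of 8 genes, Mcam the most abundant) the sums were 220, 231 and 182 with C44 and 210, 204 and 247 with 3B10; the order was the same with C44 and another with 3B10, where replicate 3 was the highest. In 4T1 tumors the endothelial sums were 234, 460 and 312 with C44 and 267, 398 and 201 with 3B10 (Eng the most abundant), and the mural sums 599, 917 and 379 with C44 and 430, 966 and 576 with 3B10 (Tagln). Replicate 2 was the highest of each 4T1 group in both lists, and also in Notch1, Notch2, Notch3, Jag1 and Hey1. This was not particular to vessel markers, as the fibroblast sum was also highest there (1740 with C44 and 4010 with 3B10). In MMTV-PyMT tumors the fibroblast sum had the endothelial order with C44 (2233, 3404 and 1171) and another with 3B10 (2220, 1667 and 1693). No gene of these lists was at the floor in all tumors of a model, and their part in the values of Notch3 and Hey1 was not tested.

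**Figure D5:**
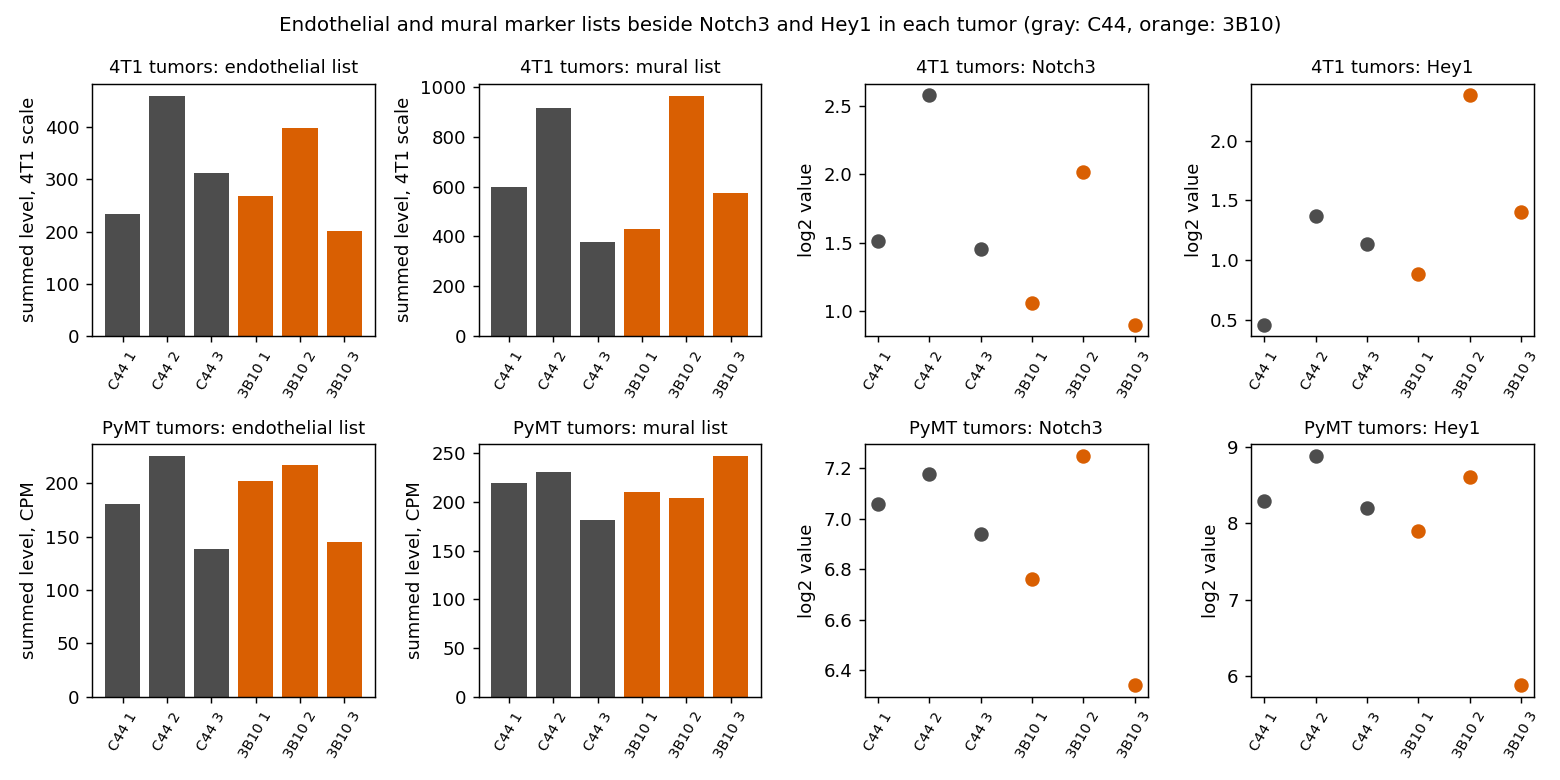
Summed level of the endothelial and mural lists (bars) and log2 values of Notch3 and Hey1 (points) in each tumor. In the MMTV-PyMT tumors Hey1 and Notch3 are lowest in 3B10 replicate 3, at 5.88 and 6.34; in the 4T1 tumors replicate 2 is the highest of its group in all 4 panels.

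Markers of other cell types were also summed in the 4T1 tumors, and no marker was called. The leukocyte sum (8 of 8 genes, Lyz2 the most abundant) was 9342, 6414 and 8195 with C44 and 3259, 6425 and 4026 with 3B10, and 6 of its 8 genes had an unadjusted p under 0.05. The epithelial sum (8 of 8 genes, 7 tested, Krt18 the most abundant) was 3293, 3593 and 3570 with C44 and 5083, 4750 and 5266 with 3B10, with 6 of 7 at an unadjusted p under 0.05. The skeletal muscle sum (4 of 5 genes, Tnnt3) was 12.7, 11.8 and 27.1 with C44 and 39.4, 167 and 254 with 3B10, with 3 of 3 tested genes at an unadjusted p under 0.05. The epithelial and muscle sums were thus higher in each 3B10 tumor than in any C44 tumor, while the leukocyte sums met at 6414 and 6425. Fibroblast sums (6 of 7 genes, Col1a1) were 1288, 1740 and 1139 with C44 and 941, 4010 and 1602 with 3B10, and 1 of 5 adipocyte markers, Fabp4, was in the table, at 9.58 to 34.9 in all 6 tumors. The part of these cell types in the Jag1 and Hey1 values of the 4T1 tumors was not tested.

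In MMTV-PyMT tumors the same lists overlapped between the groups. The epithelial sum was 5728, 5535 and 3811 with C44 and 4504, 4959 and 4040 with 3B10 (Krt8), the leukocyte sum 460, 466 and 272 with C44 and 593, 296 and 329 with 3B10 (Lyz2), and the fibroblast sum 2233, 3404 and 1171 with C44 and 2220, 1667 and 1693 with 3B10 (Col1a1). Skeletal muscle sums were 7.19 to 29.2 (Myh4) and Fabp4 was at 4.90 to 29.3. Sample 3 of the 3B10 group, low in Hey1 and Numb, was within the range of the other tumors in the leukocyte, epithelial and fibroblast sums and the highest of the 6 in the mural sum.

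The cultured lines were checked against the same lists. Epithelial keratins were low, with Krt19 and Krt5 at 0 reads in all 6 E0771 samples. The epithelial sum, nearly all Krt8, was 99.3 to 115 CPM in E0771 samples. It was 158, 204 and 164 in E0771-LG shCtrl and 424, 565 and 516 in E0771-LG shPTN samples. In E0771-LG cells 3 of 3 tested genes were called higher. Of these, Krt18 passed the filter on low values only with the shPTN samples, where it was higher, so its call supports no conclusion. In E0771 cells 0 of 2 were called, with 1 at an unadjusted p under 0.05 (limma). With other settings 1 or 2 were called there in 7 of 17. The mural sum, led by Acta2, went the other way in each line: 60.6, 56.4 and 58.1 in E0771 shCtrl and 192, 267 and 199 in shPTN samples (4 of 4 called higher), but 80.7, 69.0 and 65.4 in E0771-LG shCtrl and 21.5, 29.3 and 28.2 in shPTN samples (3 of 5 called, all lower). The endothelial sum, nearly all Eng, was 228 to 252 in E0771 cells, 215 to 234 in E0771-LG shCtrl and 165 to 174 in E0771-LG shPTN samples, with 1 of 3 genes called in E0771 (higher; 0 in 8 of 17 settings) and 2 of 4 in E0771-LG cells (1 higher, 1 lower). Cldn5 was at 0 reads in all 6 E0771 samples. For comparison, the knockdown changed 20.6% of all tested genes at the call threshold in parental cells, and 46.4% in E0771-LG cells. Whether any marker list exceeded these shares was not tested. The knockdown groups in which Rbpj was low also differed from their controls in some of these markers. The part of the markers in the values of the Notch genes was not tested.

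The fibroblast sum was 69.4 to 92.5 in E0771 shCtrl and 268 to 312 in shPTN samples (4 of 4 called higher, Col3a1 the most abundant). It was 76.3 to 117 in E0771-LG shCtrl and 53.8 to 61.4 in shPTN samples (3 of 5 called, 1 higher and 2 lower, Pdgfra). Among these calls, Col1a2 in E0771 and Dcn in E0771-LG cells passed the filter on low values only with the shPTN samples. Their calls support no conclusion. The leukocyte sum was 27.1 to 43.5 and 62.6 to 89.5 in E0771 shCtrl and shPTN samples (3 of 4 called higher, Lyz2), and 92.3 to 94.8 and 56.9 to 69.8 in E0771-LG (2 higher and 1 lower of 4, Laptm5); Itgam and Cd3e were at 0 reads in all E0771 samples. Skeletal muscle sums were at most 5.32 CPM with Myh4 at 0 reads in every cell sample, and Fabp4 was at 0.277 to 2.33 in E0771, 10.9 to 18.3 in E0771-LG shCtrl and 1.18 to 3.93 in E0771-LG shPTN samples.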

How the data were processed

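The authors aligned the reads with HISAT2, counted them with featureCounts and deposited 1 table of log2 values for 24 samples and 12091 genes. Further tools recorded for the authors were limma and edgeR. The paper itself names HISAT2, StringTie, Rsubread and edgeR, and does not name limma. Undoing the log gave whole reads (tolerance 0.01) for 100% of values in 18 samples. In the 4T1 samples it did so for 2.51 to 2.8%, and their difference from E0771-LG shCtrl values had a slope of -1.21 and -1.24 on log2 exon length, so the deposited log2 values of 4T1 were taken as length-normalized. The file holds log2 values and whole reads were recovered for 18 samples only, so the count-based test planned for a file of reads was not used; limma with voom weights on the recovered reads was run as an alternative.

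Each comparison was fitted alone with limma 3.58.1 in R 4.3.3 (lmFit; eBayes, trend and robust). A gene was kept if, after undoing the log and subtracting its sample's minimum, it reached 1 or more in 3 of the 6 samples, with Benjamini-Hochberg adjustment over all genes tested. The method was tested on simulated data. Responses in different experiments were compared by interaction terms. Tables and figures were made in Python 3.11.15. Exon lengths come from GENCODE M21 and were available for all 12091 genes.

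The members and lists were chosen with earlier results of these data known. The test of the 9 genes between the lines, planned for all but Rbpj, was dropped because the E0771-LG shCtrl samples took part in choosing the genes. Named genes are the 9 genes, Ptn and, per comparison, up to 8 called genes of the wider Notch list with the largest difference. Alternatives were no filter, a stricter filter (at least 5), pseudocounts of 1 and 0.1, median-of-ratios scaling, quantile normalization, a fit that is not robust, a block for the replicate number, voom weights, all 12 cell samples together and leaving out each sample; a length correction by a spline per sample was added after seeing the data.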

Additional observations from a re-analysis of the deposited data

Results flagged for a closer look

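Between both knockdown contrasts in the cell lines, each with its own controls, the response differed for 21 of 50 genes of the wider Notch list (interaction term, limma, adjusted over 10223 genes, of which 3550 or 34.7% were called). For Dll4 the response in E0771-LG minus that in E0771 was -3.77 (adjusted p = 0.00458), which supports no conclusion. It rests on 3 to 6 reads in E0771 shCtrl samples, and in E0771 cells Dll4 passed the filter only through the shPTN samples. The E0771 response of 2.78 was 1.15 with a pseudocount of 1. Among the other named genes, the same difference was 1.76 for Dll1 (adjusted p = 0.0126), 1.46 for Mfng (adjusted p = 0.000487), 1.32 for L3mbtl3 (adjusted p = 0.000166) and -0.96 for Ccnd1 (adjusted p = 7.23e-05). Of these, Mfng, L3mbtl3 and Ccnd1 were called in each line, with opposite signs. It was 1.40 for Mib2 (adjusted p = 0.0239), 1.31 for Numbl (adjusted p = 0.000372), 0.87 for Dtx3 (adjusted p = 0.00796), -0.90 for Aak1 (adjusted p = 0.000545) and -0.36 for Ctbp1 (adjusted p = 0.0353).

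Notch1 and Maml1 were higher in every E0771 shPTN sample than in any shCtrl sample, and lower in every E0771-LG shPTN sample. Their responses differed by -0.91 (Notch1) and -0.86 (Maml1), and these differences were not tested because the E0771-LG values took part in choosing the genes. Between the tumor models, 0 of 51 list genes differed in their response to 3B10 (limma, 0 of 10890 genes).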

How the results depend on the processing

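Of 1104 alternative values for 67 gene results, 819 kept their direction and side of the threshold, 32 lost a call, 5 gained one and 10, of differences that were not called, changed sign. Of the values without a test 221 stayed within the spread of the replicates and 17 moved beyond it. Among the 221 the sign turned for Jag1 (lowest -0.09) and Numb (lowest -0.06) in E0771-LG cells. Leaving out 1 sample gave ranges in 4T1 tumors of -0.33 to 0.02 for Notch1 and -0.25 to 0.02 for Maml1 (both highest without C44 replicate 2), -0.17 to 0.06 for Hes1 (positive without C44 replicate 3, 0.03, or 3B10 replicate 1) and -0.14 to 0.07 for Numb (positive without C44 replicate 1, C44 replicate 2, 0.01, or 3B10 replicate 1, 0.05). In MMTV-PyMT tumors the ranges were -0.72 to 0.01 for Hes1 (highest without C44 replicate 2) and -0.61 to 0.26 for Numb (highest without 3B10 replicate 3). For Notch2 the range was -0.24 to 0.01 in E0771 cells (highest without shPTN replicate 1) and, with no test, -0.15 to 0.08 between the lines.

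Leaving out 1 sample gave 0 to 2 called genes in 4T1 tumors, 1171 to 2166 in E0771 cells, and 4 to 10 higher and 2 to 6 lower genes of the wider Notch list in E0771 cells. The length correction gave 10 higher list genes in E0771 cells and 13 lower ones between the lines. The share of higher genes among calls between the lines, 35.3%, was 50.1% with median-of-ratios scaling, 51.4% with quantile normalization and 55.3% with the length correction. Replicate numbers were checked for pairing and did not pair consistently. From 2 (4T1 and E0771) to 4 (between the lines) of the 6 samples matched best with their own number. With the numbers as a block, 0, 0, 2450, 5012 and 5993 genes were called in the 4T1, MMTV-PyMT, E0771, E0771-LG and line comparisons. Why values moved was not tested. Depth limits Notch3, Hey1 and Dll4 in the cells, and it is unknown in 4T1 tumors. Each group has 3 samples and the knockdown 1 construct.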
